A study of Homo sapiens with 6 samples.

Results

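The 9 genes described here were called lower than a luciferase control in both groups labelled as histone variant knockdowns. The cells were U2OS, an established cell line from a human osteosarcoma. The genes are PSIP1, NUCKS1, FBXO28, SYT2, TTL, TIMMDC1, RNF13, LRRC58 and RAI14. The labels spell the line U20S and U2O2, which is taken here as U2OS. The cells had been transfected repeatedly with siRNA by oligofectamine and were harvested on day 4. There were 3 groups of 2 arrays. The control received siRNA against luciferase, a gene that these cells do not carry, the second group received siRNA against H3.Y, and the third, called the combined knockdown below, was labelled as knocked down for H3.X and H3.Y together. All groups thus shared the line and the transfection, and no untransfected cells were among the arrays. Arrays of a group are labelled as biological replicates, with no word on whether the cultures were separate, so p-values reflect only the array-to-array spread, which may be technical. In RNA from whole cultures, less transcript per cell and fewer cells holding the transcript cannot be told apart.

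The 9 genes were chosen on these same arrays. Each had a probe set with exactly 1 gene symbol that was called lower than luciferase in both comparisons, at a Benjamini-Hochberg adjusted p under 0.05 in limma, a linear model fitted over all 33297 probe sets. Of those probe sets, 65 were called lower after H3.Y siRNA (0.195%), 328 in the combined knockdown (0.985%) and 13 in both (0.0390%). Both comparisons use the same luciferase arrays, so the overlap is not 2 separate readings. The 13 comprised 10 probe sets with 1 gene symbol and 3 without a name here. The tenth named gene, NSL1, a kinetochore subunit, met the same rule but was not in the list of 9. Falls from the luciferase level are therefore given below as descriptions with no test. The genes carried 12 probe sets in all, since PSIP1, NUCKS1 and SYT2 had 2 each. In what follows, the called probe set is the one lower in both comparisons, and the other probe set is the remaining one of the same gene. Of the 12, 9 were called lower after H3.Y siRNA and 11 in the combined knockdown.

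H3.X and H3.Y are H3 histone variants found in primates, and H3 is the core histone whose tail carries many of the marks that chromatin readers bind. A variant replaces its canonical counterpart in some nucleosomes, outside the ordinary supply of histones during DNA replication. The 9 genes do not form a known pathway. PSIP1 and NUCKS1 encode chromatin-associated proteins, FBXO28 and RNF13 parts of ubiquitin ligases, TTL and RAI14 proteins of the cytoskeleton, SYT2 and TIMMDC1 membrane proteins of vesicles and mitochondria, and LRRC58 a leucine-rich repeat protein.

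The knockdown itself could not be read, since 0 probe sets were named for H3Y1 (H3.Y) and 0 for H3Y2 (H3.X). Array medians lay within 5.10 to 5.14 log2 units. Mesenchymal markers fitted the labelled line in part. Vimentin (VIM) lay between 10.69 and 10.95 log2 units over the 6 arrays, SPARC between 9.94 and 11.55, and COL1A1 between 8.33 and 10.73. COL1A2 (4.78 to 5.38), RUNX2 (5.05 to 5.89), SP7 (5.37 to 5.52) and ALPL (5.72 to 6.57) lay nearer the array medians. The bone sialoprotein gene IBSP stayed at 3.05 to 3.36, below or near the lower quartile of all values on each array (3.28 to 3.40). Markers above that quartile on every array numbered 7 of 8 mesenchymal, 5 of 5 epithelial, 4 of 4 neural and 1 of 4 blood markers. The blood marker was CD14 (4.18 to 4.74), while PTPRC, CD3E and HBB reached 2.29, 3.68 and 3.90 at most. Several markers moved with the combined knockdown. EPCAM was at 7.21 and 7.41 there against 4.65 to 5.14 on the other arrays, CDH1 at 4.86 and 4.88 against 4.16 to 4.40, CLDN4 at 6.13 and 6.38 against 4.57 to 5.57, and the neural marker STMN2 at 5.57 and 5.66 against 3.83 to 4.58, besides the high values of SPARC and COL1A1. KRT20 and the neural marker SYP were lower there, at 3.61 and 3.69 against 3.75 to 4.27 and at 6.41 and 6.69 against 6.95 to 7.45. COL1A2 and RUNX2 were higher there, at 5.09 and 5.38 against 4.78 to 4.92 and at 5.51 and 5.89 against 5.05 to 5.39. KRT5 did not separate, at 4.15 and 4.28 against 3.89 to 4.27. The part of these differences in the values below was not tested.

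The RefSeq promoter table (build GRCh38.p14) held 15 promoters for the 9 genes, with at least 1 for each. The 250 bases before the transcription start are shown for 4 genes, because these genes are the chromatin-associated pair and the pair that share an ETS motif, a binding motif of ETS family factors. Sequences run 5′ to 3′ on the gene's own strand, and capitals mark the motifs searched on both strands. PSIP1 lies at chr9:15510971-15511220 (minus strand), NUCKS1 at chr1:205750183-205750432 (minus strand), FBXO28 at chr1:224113861-224114110 (plus strand) and TIMMDC1 at chr3:119498297-119498546 (plus strand).
PSIP1: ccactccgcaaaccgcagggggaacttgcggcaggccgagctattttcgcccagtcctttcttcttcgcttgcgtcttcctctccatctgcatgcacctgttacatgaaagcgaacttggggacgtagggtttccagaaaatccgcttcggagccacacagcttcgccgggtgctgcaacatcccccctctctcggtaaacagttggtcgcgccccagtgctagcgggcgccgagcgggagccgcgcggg
NUCKS1: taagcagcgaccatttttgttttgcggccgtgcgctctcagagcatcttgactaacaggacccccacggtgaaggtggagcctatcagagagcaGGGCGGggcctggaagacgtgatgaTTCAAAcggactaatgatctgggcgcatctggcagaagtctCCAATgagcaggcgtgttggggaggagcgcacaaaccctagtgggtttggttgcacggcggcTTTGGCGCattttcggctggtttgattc
FBXO28: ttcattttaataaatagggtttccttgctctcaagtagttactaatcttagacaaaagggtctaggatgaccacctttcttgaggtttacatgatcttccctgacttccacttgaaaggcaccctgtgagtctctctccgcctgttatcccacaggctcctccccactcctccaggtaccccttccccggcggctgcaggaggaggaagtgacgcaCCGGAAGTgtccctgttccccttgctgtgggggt
TIMMDC1: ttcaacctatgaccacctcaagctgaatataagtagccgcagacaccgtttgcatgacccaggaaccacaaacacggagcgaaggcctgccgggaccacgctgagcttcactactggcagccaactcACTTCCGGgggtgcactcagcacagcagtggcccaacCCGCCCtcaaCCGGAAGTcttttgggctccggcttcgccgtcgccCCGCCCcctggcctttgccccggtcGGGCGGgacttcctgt
The TATA box was searched as TATAAA, the CCAAT box as CCAAT, the GC box as GGGCGG, the ETS motif as CCGGAAGT and the cAMP response element (CRE) as TGACGTCA. The cell cycle homology region (CHR) was searched as TTTGAA, the E2F motif as TTTNGCGC and the E box as CACGTG. The PSIP1 stretch held 0 matches, and 1 GC box lay in the further PSIP1 promoter. The NUCKS1 stretch held 4, one each of the GC box, CHR, CCAAT and E2F motifs, and was the only member promoter with an E2F match, which 1.51% of all 35116 promoters in the table hold. FBXO28 had 1 ETS match and TIMMDC1 2, besides 3 GC boxes. The ETS motif occurs in 3.42% of all promoters. The GC box was the motif found in most members, in 10 of their 15 promoters, against 42.6% of all promoters. RAI14 promoters 1 and 2 overlap and share a GC box, so the promoters are not all separate. By gene, the GC box was found in 8 of the 9, a count that is raised where a gene has several promoters. It was absent from the stretch of FBXO28. The CCAAT box lay in 3 of the 15 promoters, against 32.0% of all promoters. The E box was found in 2 promoters, both of RAI14 (6.3% of all), and the TATA box in 1, of LRRC58 (10.7%). CHR was found in 1, of NUCKS1 (13.3%), and CRE in 0 (1.65%). The member counts were not tested against these shares. Member promoters had a median GC content of 62.4% (43.2% to 81.2%) against 58.0% over all, and a median observed over expected CpG of 0.786 against 0.558. Matches describe the letters of these windows only, and the genes were not sampled at random.

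The 9 called probe sets fell together but not by the same amount. After H3.Y siRNA the log2 differences from luciferase ran from -1.04 (TIMMDC1) to -1.78 (NUCKS1), with a median of -1.28, and in the combined knockdown from -0.74 (TIMMDC1) to -1.52 (FBXO28), with a median of -1.18. The medians over all 33297 probe sets were 0.02 and 0.00. On every knockdown array each of the 9 lay below both luciferase arrays. On these 9 probe sets the luciferase arrays differed by at most 0.11 log2 units. The H3.Y arrays differed by up to 0.49 and the combined arrays by up to 0.35. Luciferase arrays enter both comparisons, so the rule favours probe sets on which they lie close. Across all 33297 probe sets the luciferase pair was not the tightest. Its array difference had an SD of 0.33, against 0.42 in the H3.Y pair and 0.30 in the combined pair.

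**Figure D1:**
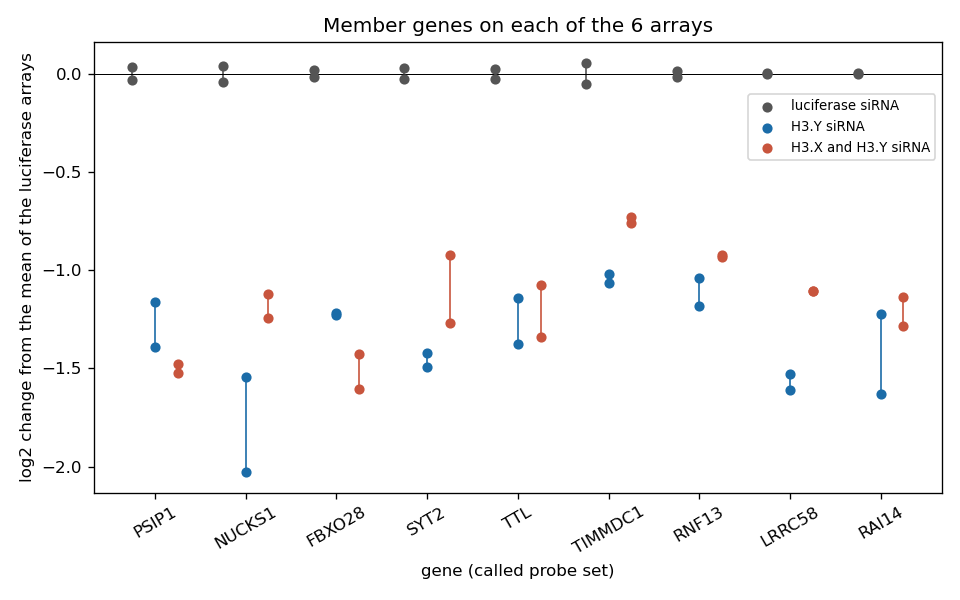
Log2 change from the mean of the luciferase arrays (vertical axis, log2 units) for the called probe set of each of the 9 genes (horizontal axis). Each point is 1 array and a line joins the 2 arrays of a group; all knockdown points lie at or below -0.73, and the widest pair is that of NUCKS1 after H3.Y siRNA.

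Of the chromatin-associated pair, PSIP1 encodes LEDGF, a reader of methylated histone H3 lysine 36 that tethers MLL complexes and HIV integrase to chromatin. Its called probe set gave 5.74 and 5.81 log2 units on the luciferase arrays, 4.38 and 4.61 on the H3.Y arrays, and 4.29 and 4.25 on the combined arrays. The levels that remained were 41.3% of luciferase after H3.Y siRNA (log2 -1.28 ± 0.14, SE, n = 2 arrays per group) and 35.3% in the combined knockdown (-1.50 ± 0.14). The knockdown groups did not overlap, and the combined arrays were the lower ones. PSIP1 makes a long protein, p75, and a short one, p52, which lacks the part of p75 that binds MLL complexes and integrase. The called probe set is annotated with 8 transcript records and the other with 1. Which transcripts each set of probes reads was not tested.

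The other PSIP1 probe set gave 7.56 and 7.67 on the luciferase arrays, 6.78 and 7.21 on the H3.Y arrays and 5.84 and 6.13 on the combined arrays. It was thus stepped, with the H3.Y arrays between the other groups and no overlap between any of the 3. Its difference from luciferase was -0.62 ± 0.19 with H3.Y siRNA (65.2% left), which did not pass, and -1.63 ± 0.19 with both variants targeted (32.3% left). The called probe set was picked for its call after H3.Y siRNA and the other is the one left over, so the rule itself favours a larger fall of the called one there, and no test was made between them.

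NUCKS1 encodes a small, highly phosphorylated nuclear protein that binds DNA, acts in homologous recombination and is a transcriptional activator of SKP2. Its called probe set is annotated with 1 transcript record and 0 RefSeq mRNAs, and which transcript it reads was not tested. NUCKS1 is among the 9 by this probe set alone. It read 5.50 and 5.58 on the luciferase arrays. Values were 3.51 and 3.99 on the H3.Y arrays and 4.42 and 4.29 on the combined arrays. That left 29.0% after H3.Y siRNA (log2 -1.78 ± 0.19), the lowest share among the 9 with all arrays, and 44.1% in the combined knockdown (-1.18 ± 0.19). The H3.Y arrays were lower than the combined arrays and stood near the lower quartile of all values on the arrays (3.28 to 3.40). Without H3.Y replicate 1 the difference from luciferase was -1.54 and that of LRRC58, at -1.61, was larger. The other probe set, annotated with 6 records including the RefSeq mRNA, showed the opposite order. It gave 10.05 and 10.28 on the luciferase arrays, 9.29 and 9.30 on the H3.Y arrays and 8.46 and 8.92 on the combined arrays. There 54.6% was left after H3.Y siRNA (-0.87 ± 0.19, not called) and 35.8% in the combined knockdown (-1.48 ± 0.19). On both probe sets of NUCKS1 every knockdown array lay below every luciferase array, and on neither did the knockdown groups overlap.

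**Figure D2:**
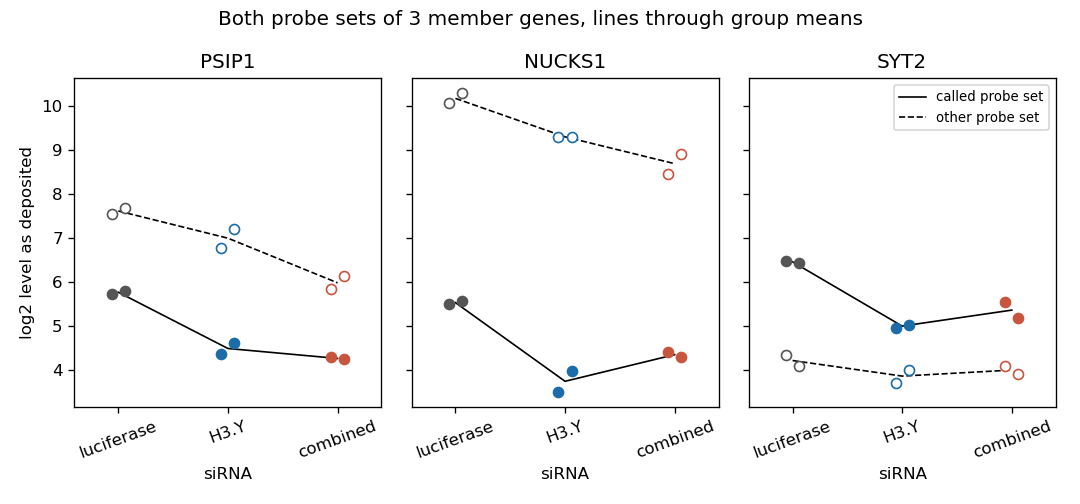
Deposited log2 levels (vertical axis) of both probe sets of PSIP1, NUCKS1 and SYT2 in the 3 siRNA groups (horizontal axis). Points are arrays, filled for the called and open for the other probe set, and lines join group means; heights of different probe sets are not comparable. The called NUCKS1 probe set is lowest after H3.Y siRNA and the other one in the combined knockdown.

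FBXO28 and RNF13 both belong to the ubiquitin system. FBXO28 is an F-box protein, the part of an SCF ligase that binds the substrate. Its probe set gave 8.56 and 8.53 on the luciferase arrays, 7.33 and 7.32 on the H3.Y arrays and 6.94 and 7.12 on the combined arrays. The share left was 42.9% after H3.Y siRNA (log2 -1.22 ± 0.13) and 35.0% in the combined knockdown (-1.52 ± 0.13). With PSIP1, it was 1 of 2 genes whose called probe set was lower in the combined knockdown than after H3.Y siRNA.

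RNF13 is a RING ubiquitin ligase anchored in endosomal and lysosomal membranes, with a protease-associated domain facing the lumen. It gave 7.11 and 7.14 on the luciferase arrays, 6.08 and 5.94 on the H3.Y arrays and 6.19 and 6.20 on the combined arrays. That left 46.3% (log2 -1.11 ± 0.13) and 52.5% (-0.93 ± 0.13). The knockdown arrays lay close together, with the combined ones slightly higher and no overlap.

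TTL encodes tubulin tyrosine ligase, which puts the last tyrosine back on alpha-tubulin after its removal and so resets the tyrosination cycle of microtubules. Its levels were 9.18 and 9.23 on the luciferase arrays, 7.83 and 8.06 on the H3.Y arrays and 8.13 and 7.87 on the combined arrays. The remaining levels were 41.8% (log2 -1.26 ± 0.16) and 43.3% (-1.21 ± 0.16), and the knockdown groups overlapped. RAI14, or ankycorbin, is an ankyrin repeat and coiled-coil protein of the actin cortex. It gave 8.02 and 8.01 on the luciferase arrays, 6.39 and 6.79 on the H3.Y arrays and 6.73 and 6.88 on the combined arrays. The levels left were 37.2% (-1.43 ± 0.17) and 43.2% (-1.21 ± 0.17), again with overlap between the knockdowns. These were the 2 genes of the 9 whose knockdown arrays overlapped on the called probe set.

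TIMMDC1 is an inner mitochondrial membrane protein needed to assemble respiratory complex I. Its levels were 9.89 and 10.00 on the luciferase arrays, 8.88 and 8.93 on the H3.Y arrays and 9.19 and 9.22 on the combined arrays. It fell least of the 9 in both comparisons, to 48.6% (log2 -1.04 ± 0.13) and 59.7% (-0.74 ± 0.13), and the combined arrays lay above the H3.Y arrays without overlap. SYT2 encodes synaptotagmin 2, a calcium sensor of vesicle fusion known from nerve terminals. Its called probe set gave 6.49 and 6.43 on the luciferase arrays, 4.97 and 5.04 on the H3.Y arrays and 5.54 and 5.19 on the combined arrays, which left 36.4% (-1.46 ± 0.16) and 46.8% (-1.09 ± 0.16), again with the combined arrays higher and no overlap.

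The other SYT2 probe set, annotated with 4 transcript records, did not follow, and which transcripts it reads was not tested. It gave 4.35 and 4.09 on the luciferase arrays, 3.72 and 4.02 on the H3.Y arrays and 4.10 and 3.92 on the combined arrays. Its differences of -0.35 ± 0.17 and -0.22 ± 0.17 were not called, and the combined arrays overlapped with luciferase. LRRC58 has leucine-rich repeats, which usually bind other proteins. It gave 7.85 and 7.84 on the luciferase arrays, 6.32 and 6.23 on the H3.Y arrays and 6.74 and 6.74 on the combined arrays. That left 33.7% (log2 -1.57 ± 0.12) and 46.5% (-1.11 ± 0.12) and the combined arrays lay above the H3.Y arrays without overlap.

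The comparison of the combined knockdown with H3.Y siRNA asks whether the size of the fall differed. The genes were not chosen on this comparison, but the rule asked for a call after H3.Y siRNA, where fewer probe sets were called, and so favours called probe sets with large falls there. The comparison is therefore not independent of the choice. Of the 12 probe sets, 1 was called, against 4.67% of all 33297 (1554 probe sets). It was the other probe set of PSIP1, lower in the combined knockdown by log2 -1.01 ± 0.19 (95% interval -1.48 to -0.55, limma adjusted p = 0.040), with both combined arrays below both H3.Y arrays. In a fit of only the 4 arrays compared, its adjusted p was 0.088, and without each array in turn it ran from 0.055 to 0.25, so this call was lost whichever of the 6 arrays was left out. The difference itself stayed between -1.23 and -0.80.

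None of the 9 called probe sets passed between the knockdowns (0 of 9 in limma, adjusted p from 0.099 to 0.91). Their differences had a median of 0.22, and 7 of the 9 were higher in the combined knockdown, a direction that the rule favours. Of the 3 other probe sets, those of PSIP1 and NUCKS1 were lower in the combined knockdown and that of SYT2 was higher. The smallest adjusted p was that of LRRC58, at 0.46 ± 0.12 (95% interval 0.16 to 0.76, adjusted p = 0.099). NUCKS1 was the largest with all arrays, at 0.60 ± 0.19 (0.15 to 1.05) on the called probe set, and its other probe set gave -0.61 ± 0.19 (-1.06 to -0.16), with adjusted p of 0.14 for both. The called NUCKS1 probe set moved with the H3.Y array left out: it was at 0.36 without H3.Y replicate 1 (adjusted p = 0.27), below LRRC58 at 0.50, and at 0.85 without H3.Y replicate 2 (adjusted p = 0.047). Each of these fits leaves 1 H3.Y array, which is assumed to vary like the arrays of the other groups. These 4 probe sets of PSIP1, LRRC58 and NUCKS1 had an unadjusted p under 0.05, as did 19.0% of all probe sets. The opposite signs on NUCKS1 leave no single order of the knockdowns for that gene.

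For the other genes the intervals bound how far apart the knockdowns could be. That of TTL ran from -0.32 to 0.43 around 0.05, and that of RAI14 from -0.20 to 0.63 around 0.22. RNF13 had 0.18 (-0.13 to 0.49), SYT2 0.36 (-0.02 to 0.74) and TIMMDC1 0.30 (-0.01 to 0.60) on the called probe sets. On the side of a further fall in the combined knockdown stood FBXO28 at -0.29 (-0.61 to 0.02) and the called probe set of PSIP1 at -0.23 (-0.56 to 0.11). All of these intervals include 0, which does not show that the knockdowns acted alike.

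**Figure D3:**
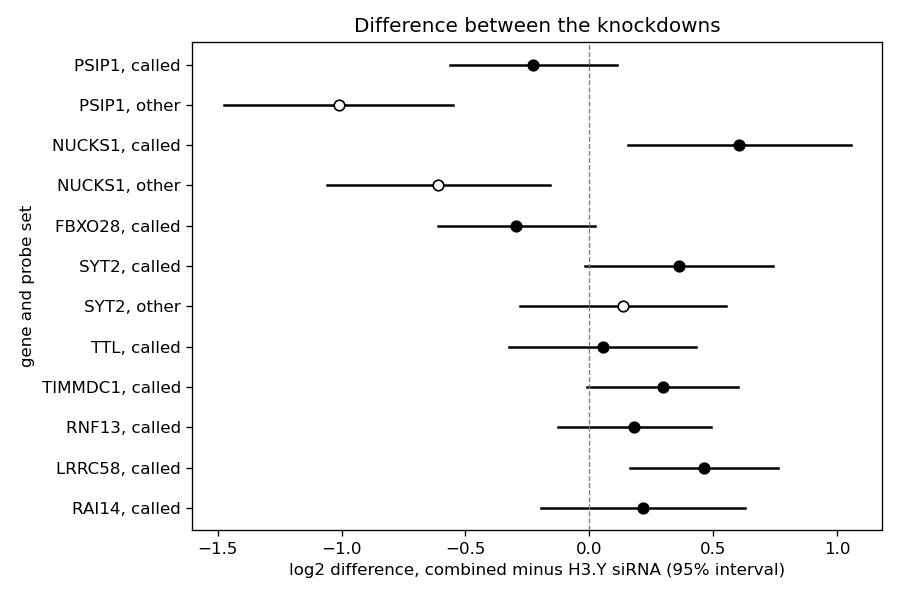
Log2 difference between the combined knockdown and H3.Y siRNA (horizontal axis) for each of the 12 probe sets (vertical axis), with bars for the 95% interval of the limma fit. Filled points are the called and open points the other probe sets; the other PSIP1 probe set, at -1.01, is the one that passed.

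The edge of the rule was crowded. TTL was nearest to the threshold, with a larger adjusted p of 0.04998 over the comparisons with luciferase, followed by TIMMDC1 at 0.047 and RAI14 at 0.043. Just outside lay PGM2, a phosphoglucomutase, at 0.051 with log2 differences of -1.56 after H3.Y siRNA and -1.004 in the combined knockdown. ANP32E, a chaperone that removes the histone variant H2A.Z, was at 0.061 (-1.64 and -1.26), GNAQ, the alpha subunit of the G protein Gq, at 0.061 (-1.80 and -1.91) and TCAF1 at 0.063 (-0.99 and -0.93). Some genes just outside thus had larger differences than members, since the rule also weighs the spread between arrays.

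The calls depended on which arrays entered the fit, for all probe sets as for the members. Without either luciferase array or either combined array, 0 of the 12 probe sets were called lower after H3.Y siRNA and 0 in the combined knockdown, with 10 or 11 of them at an unadjusted p under 0.05 in limma. In each of these 4 fits 0 of all 33297 probe sets were called in either direction against luciferase in either comparison (2852 to 3897 at an unadjusted p under 0.05). Without H3.Y replicate 1 the member counts were 0 and 10, beside 4 and 644 of all probe sets, and without H3.Y replicate 2 they were 9 and 10, beside 629 and 644. With the replicate number of the labels as a block, 2 and 10 were called. After renewed quantile normalization 7 and 10 were, TTL and TIMMDC1 no longer passing after H3.Y siRNA (adjusted p = 0.066 and 0.054). TIMMDC1 also missed the threshold in the combined knockdown under the block, the fit of 4 arrays, quantile normalization and median centring, with limma adjusted p from 0.051 to 0.063. Sizes moved less than calls: over the fits that left out 1 array, the differences of the 9 called probe sets from luciferase stayed between -2.03 and -0.69.

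Genes whose profile was closest to the median member were ranked by the Euclidean distance of their changes over the 4 knockdown arrays. The nearest 5 were PGM2 (distance 0.48 log2 units), PRKAR2B (0.48), a regulatory subunit of protein kinase A, CMTM6 (0.50), SLC35G1 (0.51) and GNAQ on a further probe set (0.51). PRKAR2B stood at -1.01 and -1.06 from luciferase in the H3.Y and combined groups, and CMTM6 at -1.25 and -0.95. Of these 5 genes, the combined knockdown was called for PRKAR2B (adjusted p = 0.038) and GNAQ (0.028), and H3.Y siRNA for PGM2 (0.038). Among the members themselves the distance ran from 0.13 (TTL) to 0.73 (TIMMDC1), so TTL was the most typical of the 9.

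In the genome, 3 of the genes lie on chromosome 1 (SYT2, NUCKS1 and FBXO28), 3 on chromosome 3 (TIMMDC1, LRRC58 and RNF13), and TTL, RAI14 and PSIP1 on chromosomes 2, 5 and 9. The nearest measured gene on each side, in the gene order of RefSeq on GRCh38.p14, gave 18 neighbours, none of them a member, with 0 to 12 other genes between a member and its neighbour. After H3.Y siRNA 0 of the 18 were called, with 6 at an unadjusted p under 0.05 in limma, and 4 lay below luciferase; their median difference was 0.19. In the combined knockdown 1 fell, 0 rose, 5 had an unadjusted p under 0.05 in limma and 9 lay below luciferase, with a median of 0.05. Of all 18417 genes, each by 1 probe set, 48 fell and 19 rose after H3.Y siRNA, and 247 fell and 235 rose in the combined knockdown. An unadjusted p under 0.05 in limma was found for 3172 and 3553 of these genes in the 2 comparisons. The neighbour that fell was RAB29, a small GTPase gene with 1 gene between it and NUCKS1.

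RAB29 gave 7.88 and 7.87 on the luciferase arrays, 8.52 and 8.36 on the H3.Y arrays and 6.92 and 6.95 on the combined arrays. It was lower in the combined knockdown by -0.94 ± 0.13 (adjusted p = 0.029), against 0.56 ± 0.13 for H3.Y siRNA, where it was not called (adjusted p = 0.15). The groups did not overlap, and the difference between the knockdowns was -1.50 ± 0.13 (adjusted p = 0.0065). NUCKS1 and RAB29 were thus both lower in the combined knockdown, while after H3.Y siRNA their values lay on opposite sides of luciferase.

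Between the knockdowns 2 of the 18 neighbours were called lower in the combined one and 1 higher, against 494 and 746 of all 18417 genes. Besides RAB29 these were POGLUT1, which adjoins TIMMDC1, at 1.16 ± 0.14 (limma adjusted p = 0.015) and COMMD2, at -1.10 ± 0.20 (0.038). COMMD2, with 2 genes between it and RNF13, differed from luciferase by 0.26 ± 0.20 and -0.84 ± 0.20, neither called. KDM5B, which encodes a demethylase of histone H3 lysine 4 and directly adjoins SYT2, differed from luciferase by 0.34 ± 0.15 and 0.79 ± 0.15, neither called. ZC3H6, with 5 genes between it and TTL, had the largest value among the neighbours after H3.Y siRNA, 1.22 ± 0.24, and was not called (0.11). Between TIMMDC1 and LRRC58 lie 24 genes, of which 5 were measured with 1 symbol, and 0 of those fell or rose in either comparison, with medians of 0.06 and -0.02. Between SYT2 and NUCKS1 lie 116 genes, of which 43 were measured; 1 of those fell in the combined knockdown and 0 after H3.Y siRNA, 0 rose, and the medians were -0.08 and 0.01.

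**Figure D4:**
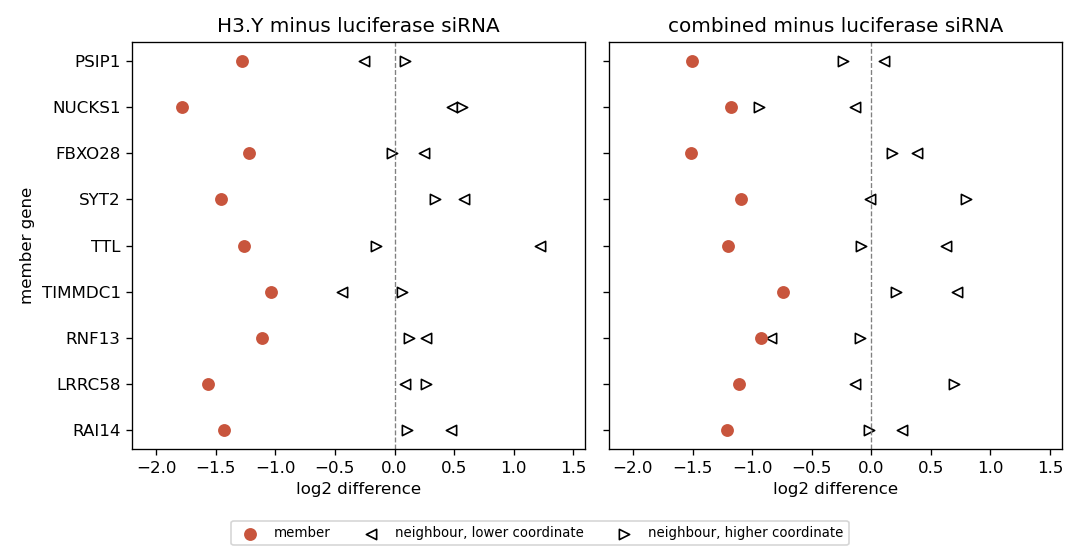
Log2 difference from luciferase (horizontal axis) after H3.Y siRNA (left) and in the combined knockdown (right) for the called probe set of each member (filled) and its nearest measured gene at the lower and higher coordinate (triangles). Members lie between -1.78 and -0.74. The neighbour nearest to its member in the left panel is POGLUT1 at -0.44, beside TIMMDC1. In the right panel it is COMMD2 at -0.84, beside RNF13 at -0.93, and RAB29 lies at -0.94, beside NUCKS1 at -1.18.

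The genes that work with a member, or belong to its family, were set out in 8 lists of 118 genes, of which 109 were measured. After H3.Y siRNA 0 of the 109 fell and 0 rose (25 at an unadjusted p under 0.05 in limma), and in the combined knockdown 0 fell and 1 rose (20 at an unadjusted p under 0.05). The counts over all genes are those given for the neighbours, with 3172 and 3553 of 18417 at an unadjusted p under 0.05 in limma. Between the knockdowns 1 of the 109 was called lower in the combined one and 5 higher, against 494 and 746 of all 18417 genes. List medians ran from -0.43 to 0.15 after H3.Y siRNA and from -0.28 to 0.13 in the combined knockdown, against 0.01 for all genes in both. The lists were drawn up with earlier results of these arrays known.

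For PSIP1, 9 HDGF-related genes and LEDGF partners were measured, with medians of -0.05 and -0.13. HDGF, the founding member of the family, differed from luciferase by 0.12 ± 0.17 and -0.49 ± 0.17, and CDCA7L, which binds LEDGF, by -0.48 ± 0.16 and -0.19 ± 0.16. For NUCKS1, 6 recombination and SKP2-p27 genes had medians of -0.43 and -0.28. SKP2, the F-box protein that marks the CDK inhibitor p27 for destruction, gave 9.25 and 9.22 on the luciferase arrays, 8.44 and 8.21 on the H3.Y arrays and 9.16 and 9.13 on the combined arrays. Its difference from luciferase was -0.90 ± 0.14 with H3.Y siRNA (adjusted p = 0.072), compared with -0.09 ± 0.14 in the combined knockdown (adjusted p = 0.88). Between the knockdowns SKP2 was higher in the combined one by 0.82 ± 0.14 (adjusted p = 0.030). SKP2 thus had the same order of the knockdowns as the called NUCKS1 probe set, an order that the rule favours there. The other NUCKS1 probe set, the one annotated with the RefSeq mRNA, had the opposite order. Neither NUCKS1 probe set was called between the knockdowns (limma adjusted p = 0.14 for both). A link between SKP2 and NUCKS1 was not tested. Its cofactor CKS1B gave -1.24 ± 0.19 and -0.34 ± 0.19, neither called.

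For FBXO28, 9 SCF core, substrate and kinase genes had medians of -0.03 and -0.25. CAND1, which exchanges F-box proteins on the ligase, stood at -0.64 ± 0.13 and -0.56 ± 0.13, and neither passed. For RNF13, 10 ligases of its family had medians of 0.02 and 0.13, and RNF149, with the smallest p of these in the comparisons with luciferase, gave 0.51 ± 0.15 and 0.19 ± 0.15, neither called. The next were RNF128, at -0.08 and 0.57, and RNF43, at -0.29 and 0.59, also not called.

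For TTL, 24 genes of the tyrosination cycle and TTL-like ligases had medians of 0.00 and -0.05. SVBP, the partner of the vasohibin peptidases that remove the tyrosine, gave 0.45 ± 0.14 and -0.09 ± 0.14, and TTLL12 -0.86 ± 0.32 and -0.85 ± 0.32, none called. For RAI14, 10 actin genes had medians of -0.10 and 0.06. PALLD, the actin bundler palladin, gave -0.77 ± 0.17 and 0.54 ± 0.17, neither called, and was higher in the combined knockdown than after H3.Y siRNA by 1.31 ± 0.17 (adjusted p = 0.016). UACA, a relative of RAI14, gave -0.98 ± 0.27 and -0.25 ± 0.27, neither called.

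For SYT2, 22 synaptotagmins and exocytic SNAREs had medians of 0.00 and 0.05. VAMP1, a vesicle SNARE, was the 1 listed gene that rose, by 1.89 ± 0.18 in the combined knockdown (adjusted p = 0.015) against 0.32 ± 0.18 after H3.Y siRNA. SYT13 gave -1.01 ± 0.17 and -0.16 ± 0.17 and VAMP3 -1.23 ± 0.23 and 0.61 ± 0.23, neither called against luciferase. All 3 were called higher in the combined knockdown than after H3.Y siRNA, by 1.58, 0.85 and 1.85. For TIMMDC1, 19 complex I assembly and TIM17/22/23 genes had medians of 0.15 and -0.06. TIMM17A, a subunit of the inner membrane translocase, gave 0.94 ± 0.13 after H3.Y siRNA (not called, 0.065) and -0.06 ± 0.13 in the combined knockdown, and was lower in the combined one by -1.003 ± 0.13 (adjusted p = 0.017).

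**Figure D5:**
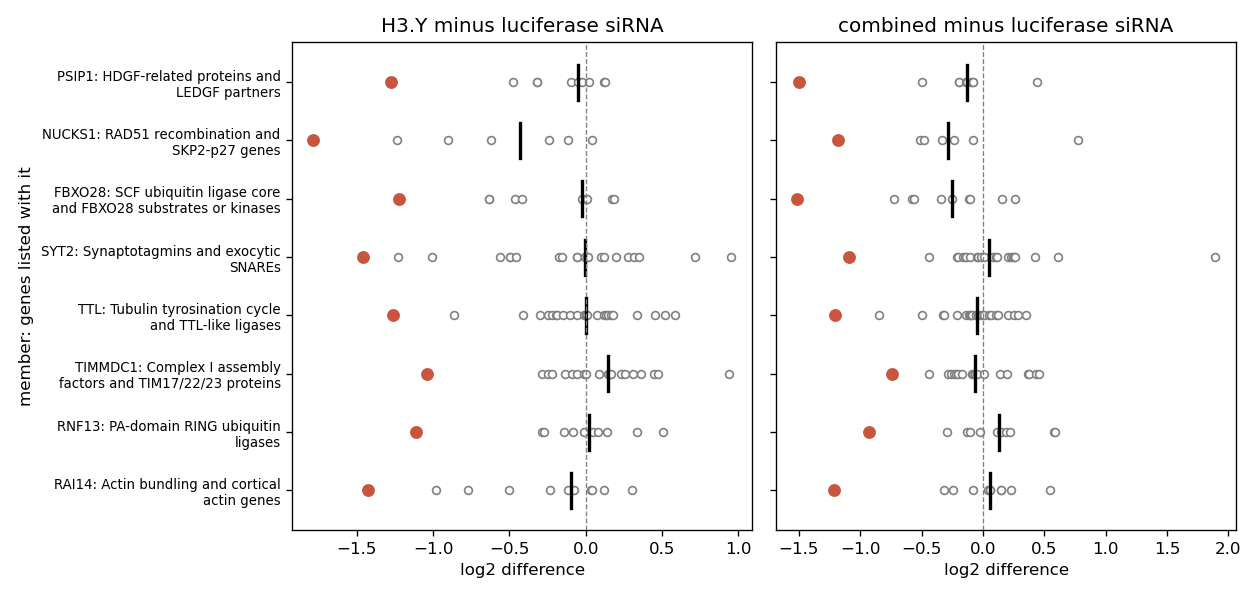
Log2 difference from luciferase (horizontal axis) after H3.Y siRNA (left) and in the combined knockdown (right) for the genes listed with each of 8 members (vertical axis). Open points are listed genes, bars their median and filled points the member's called probe set; VAMP1, at 1.89 in the right panel, is the listed gene that rose.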

How the data were processed

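Total RNA of 6 U2OS samples was labelled with biotin and hybridised to Affymetrix arrays (labels' protocols). The authors deposited log2 expression values for each probe set, produced with the package oligo, per the submitters' processing notes; no version, summarisation or build is given in the sources used here. Base 2 was inferred from the span of 0.687 to 14.0. Near-equal array medians show a common scale, which would hide a change of all transcripts alike. Symbols came from the platform annotation, with 19429 of 19460 single-symbol probe sets updated through Entrez IDs in RefSeq GRCh38.p14; 0 value columns were left unused.

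Comparisons were fitted with limma 3.58.1 (R 4.3.3), lmFit and eBayes, with group means over the 6 arrays (3 residual and 3.43 prior degrees of freedom), tested on simulated data. P-values are two-sided and adjusted over 33297 probe sets in each comparison, with a threshold of 0.05 and no fold minimum. The number of arrays limits precision. Listed and neighbouring genes were read from the probe set with the highest mean. Named genes were the 9 members, the 4 just outside the rule, the 5 most alike, the neighbours, and up to 3 genes of each list with the smallest p; NSL1 and motif examples were picked after their values were seen. Members and lists were chosen with earlier results of these data known. Alternatives tried were a variance trend, a mean above 5 log2 units, median centring, renewed quantile normalization, a fit of the 4 arrays compared, a replicate block, and leaving out each array.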

Additional observations from a re-analysis of the deposited data

Results flagged for a closer look

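The other probe set of PSIP1 differed between the knockdowns by the test of the difference itself, at log2 -1.01 (combined minus H3.Y, limma adjusted p = 0.040), with both combined arrays below both H3.Y arrays. The call was lost in a fit of the 4 arrays compared (adjusted p = 0.088) and whichever array was left out (0.055 to 0.25). Groups of 2 arrays are too small for a check of single outlying samples.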

How the results depend on the processing

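Over the 6 alternatives and the 6 fits that each left out 1 array, all 9 called probe sets stayed below luciferase in both comparisons, wherever they were tested. Differences between the knockdowns kept their sign except for TTL, which ran from -0.078 (without combined replicate 1) to 0.19 when 1 array was left out, and was also below 0, at -0.062, without H3.Y replicate 1, and the other SYT2 probe set, from -0.013 (without H3.Y replicate 1) to 0.29, none of them called. With only the 4 arrays compared, limma called 0 probe sets after H3.Y siRNA (3709 at an unadjusted p under 0.05), 448 between the knockdowns and 0 lower in both (715 at an unadjusted p under 0.05), and of the members 0 after H3.Y siRNA (11 at an unadjusted p under 0.05) and 0 between the knockdowns (4 at an unadjusted p under 0.05). A mean above 5 log2 units left 17207 probe sets and gave 541, 1389 and 2540 calls in the 3 comparisons and 59 lower in both, and called 2 member probe sets between the knockdowns, LRRC58 being added at an adjusted p of 0.045. The variance trend gave 205, 960 and 1956, with 22 lower in both. Leaving out 1 array gave 0 to 629 calls with H3.Y siRNA, 0 to 644 with both variants targeted, 12 to 1641 between them and 0 to 40 lower in both, and 0 to 9, 0 to 10 and 0 to 1 member probe sets. Over those fits 2852 to 6095 probe sets had an unadjusted p under 0.05 in the combined knockdown, and 2899 to 6092 after H3.Y siRNA. The arrays with the same replicate number deviated together (r = 0.22, 0.28 and 0.12 between groups), but the labels give the number no shared source. With it as a replicate block, 68, 750 and 1778 probe sets were called, 10 lower in both, with 2 member probe sets instead of 9 after H3.Y siRNA, 10 instead of 11 for the combined one, and 1 between them. The cause of these changes was not tested.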
